A study of Gallus gallus with 40 samples.

Results

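Collagen genes encode the chains of the extracellular matrix proteins that form fibrils, sheets and filaments between cells. The 25 genes described here are those of the 26152 gene models in the deposited table whose symbol has the form COL, a type number, A and a chain number, with COL17A1, the transmembrane collagen of epithelial anchoring junctions, left out. By structural type 6 were fibrillar (COL1A1, COL1A2, COL2A1, COL3A1, COL5A1, COL5A2), 3 belonged to basement membranes (COL4A1, COL4A2, COL18A1) and 2 formed networks (COL8A1, COL8A2). Another 7 were fibril-associated (COL9A1, COL9A2, COL9A3, COL12A1, COL14A1, COL20A1, COL22A1). The remaining 7 were the beaded filament genes COL6A1, COL6A2 and COL6A3, the transmembrane collagens COL13A1 and COL25A1, and COL26A1 and COL28A1. No other collagen type carries such a symbol in the table, and gene models without a symbol are not analysed here.

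The genes were measured by RNA sequencing in the chorioallantoic membrane, the vascular membrane under the eggshell of a bird embryo, of Ross 308 broilers, a meat chicken. There were 4 groups of 10 embryos, namely female and male embryos after 11 days of incubation and female and male embryos after 15 days. All eggs had been stored for 3 days before incubation, sex was determined by a molecular test, and no embryo received a treatment according to the labels. Each library came from whole membrane of 1 embryo.

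A collagen molecule is a triple helix of 3 chains, so the chains of a type made of different gene products have to be supplied together. Type I and III collagen form the bulk of the fibrils of connective tissue, type V starts and limits their growth, and fibril-associated collagens sit on the fibril surface. Type IV collagen is the sheet of every basement membrane, including that of capillaries. Type VIII collagen forms short-chain networks and is known from vessel walls and from the membrane behind the cornea, and type II and IX collagens are best known from cartilage.

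The depth implied by the values was 28.28 to 49.24 M reads per library (median 35.39 M). Values are FPKM, read counts normalised to transcript length and library depth; whether a count is a single read or a read pair (RPKM or FPKM) is not given in the labels or the table, and depth is in the same units. Markers of the tissue's compartments were present in every group. The lowest summed levels of any library were 2030 FPKM over 13 stromal fibroblast markers, 524 FPKM over 8 endothelial markers, 527 FPKM over 8 smooth muscle and mural cell markers and 2963 FPKM over 9 epithelial markers. A few libraries stood apart among the collagen genes. Replicate 81 of the day 15 males was the lowest of its group in 17 of the 21 tested collagen genes. Replicate 74 of the day 15 females was the highest of its group in 16 of 21. Replicate 83 of the day 15 females, the lowest of its group in 5, had the group's lowest summed endothelial markers (524 FPKM against a group median of 911) and its highest smooth muscle and mural markers (2224 against 1652). Many genes also followed the embryo number of the labels within day 11. Results whose call changed with it are given separately against day 11 embryos 2 to 20 and 22 to 48.

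The collagen RNA of the membrane was dominated by 3 fibrillar genes. COL1A1 (ENSGALG00000041555, GRCg6a chromosome 27, 5538288 to 5555467) encodes the major chain of type I collagen, and its mean of 2163 FPKM over the 40 libraries ranked 20 among all genes of the table. COL1A2 (ENSGALG00000009641, chromosome 2, 23572966 to 23610978), the second type I chain, had a mean of 1922 FPKM. COL3A1 (ENSGALG00000035584, chromosome 7, 618031 to 671774), which forms the reticular fibres of soft tissue and vessels, had a mean of 1844 FPKM. At day 11 these genes made up 30.1%, 26.8% and 23.3% of the summed FPKM of the 25 collagen genes, and at day 15 they made up 26.97%, 23.9% and 25.7%. COL3A1 thus ranked 3 among the collagen genes at day 11 and 2 at day 15.

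A middle tier of 7 genes had means of 144 to 297 FPKM. It held COL6A2, COL6A1, the type IV genes COL4A1 and COL4A2, COL18A1, and both type V genes. COL6A3, COL2A1, COL12A1, COL8A1, COL8A2, COL26A1 and COL14A1 had means of 12.2 to 54.1 FPKM, and the order changed with day among them. COL8A1 was 15th at day 11 and 12th at day 15, while COL2A1 went from 11th to 14th. COL13A1 and COL9A2 had means of 5.52 and 2.23 FPKM, and the other 6 genes were below 1 FPKM.

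The lowest genes rest on few reads. Whole reads recovered from the FPKM gave medians over the 40 libraries of 36 reads for COL9A1, 34 for COL25A1, 25.5 for COL22A1, 20.5 for COL20A1, 16.5 for COL9A3 and 4.5 for COL28A1, against 322266 for COL1A1. COL9A3, COL20A1, COL22A1 and COL28A1 did not reach 0.5 FPKM in at least 10 libraries and were not among the 15880 genes tested. The other 21 passed this filter, COL9A1 through day 11 libraries only.

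**Figure D1:**
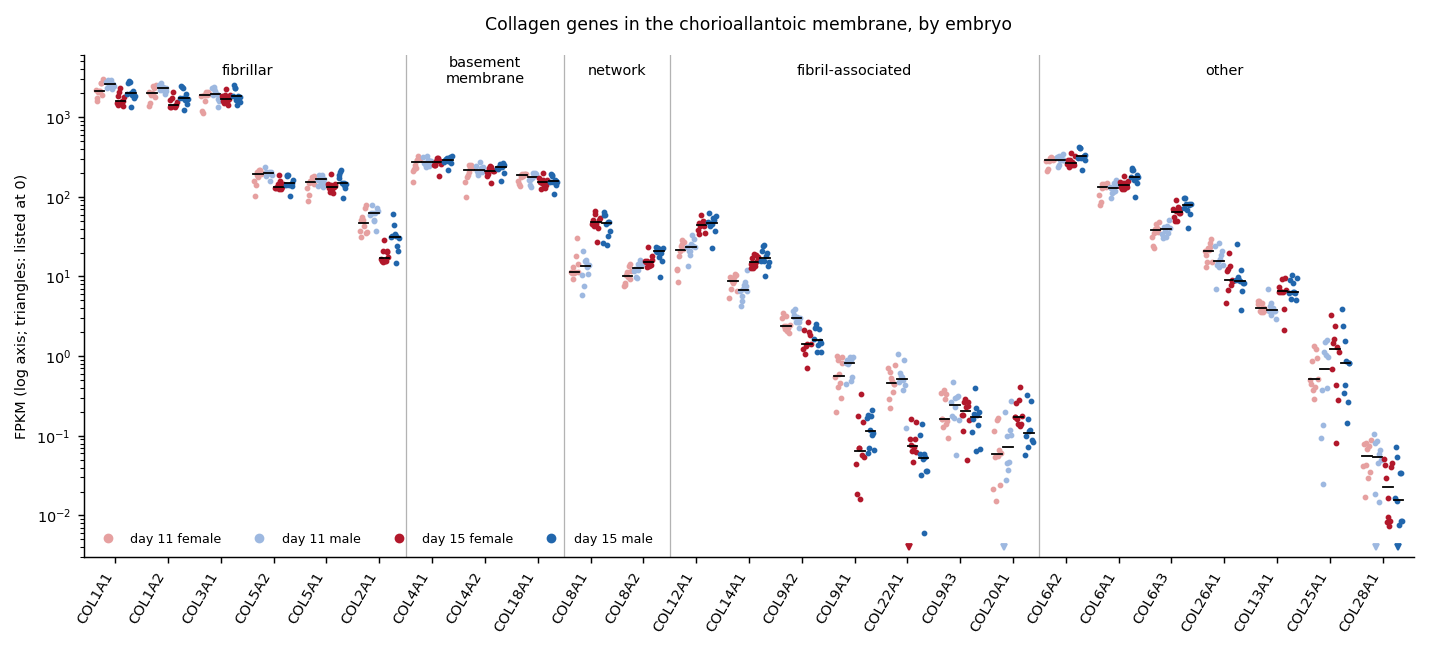
Level of each of the 25 collagen genes in each embryo, in FPKM on a log axis, ordered by mean level within the structural classes. Each point is 1 of 10 embryos of a group, black lines are group medians and triangles mark values listed at 0. COL1A1, COL1A2 and COL3A1 lie above all other collagen genes in all 40 libraries, and the day 15 points of COL8A1, COL12A1, COL14A1 and COL6A3 lie above most day 11 points.

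Between days 11 and 15 the collagen genes did not move as a block. Increases were called for 7 of the 21 tested genes and decreases for 7, and the remaining 7 missed the threshold (limma, Benjamini-Hochberg adjusted p below 0.05 over all tested genes, averaged over the sexes). The decreases include COL9A1, which passed the level filter only through day 11, where it was higher. Of all tested genes 60.2% were called in this comparison, 30.9% higher and 29.3% lower, so the share of collagen genes called in each direction was near that background. The median log2 change was 0.09 over the 21 collagen genes and 0.01 over all tested genes. The highest adjusted p among the 14 called genes was 0.000767. The change had the same sign in females and males for all 21 genes, which includes very small changes such as that of COL3A1 (0.03 and 0.003). The share of all tested genes with the same sign in both sexes was not computed. In females 7 were called higher and 7 lower, against 23.5% and 22.2% of all genes (45.7% together). In males the counts were 8 and 7, against 24.4% and 23.3% (47.7% together), the additional gene being COL6A2. The 14 genes called on average were called in the same direction in each sex. In no collagen gene were the 20 day 11 libraries free of overlap with the 20 day 15 libraries. Such separation was seen for 2.24% of all tested genes toward higher and 2.64% toward lower values. Separation of the days within a single sex, given below for some genes, is a less strict criterion. The share of all tested genes that meet it was not computed. In a bulk tissue, fewer cells of a type and less RNA per cell cannot be told apart.

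By class, 4 of 6 fibrillar genes fell and none rose. Neither of the type IV genes nor COL18A1 passed the test. Both network genes rose, and the 4 tested fibril-associated genes split into COL12A1 and COL14A1, which rose, and COL9A1 and COL9A2, which fell. Of the 6 other genes tested COL6A1, COL6A3 and COL13A1 rose and COL26A1 fell.

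**Figure D2:**
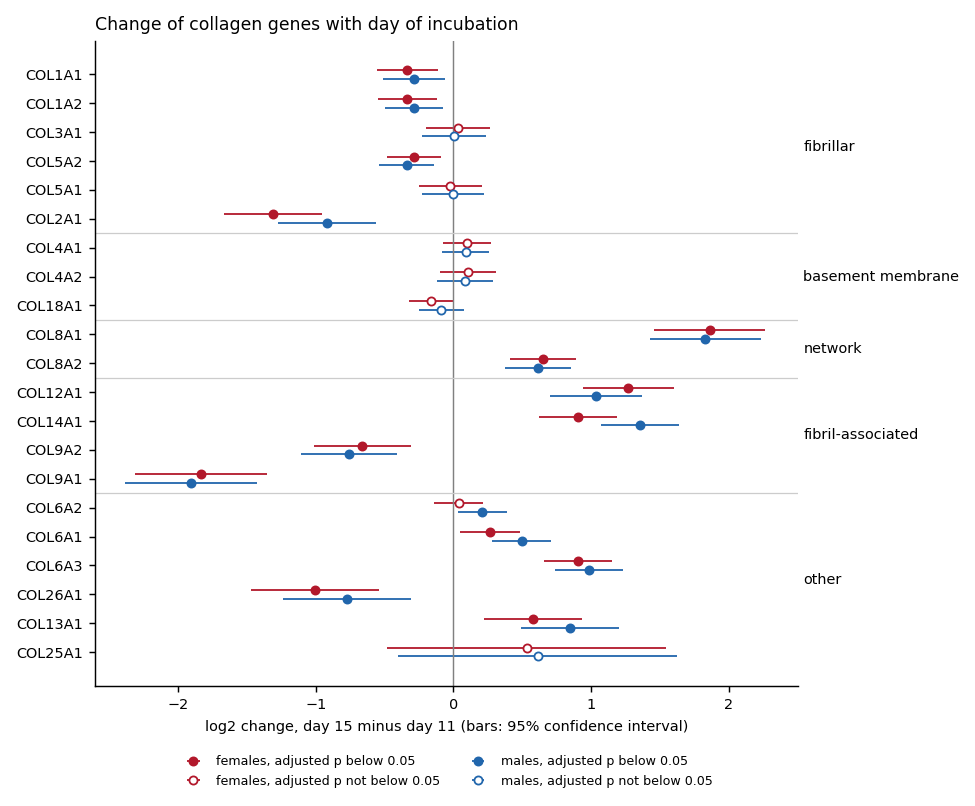
Log2 change from day 11 to day 15 of the 21 tested collagen genes in females (red) and males (blue), with 95% confidence intervals from limma; filled points have an adjusted p below 0.05. Both sexes lie on the same side of 0 for every gene, with the network genes and COL12A1, COL14A1 and COL6A3 to the right and COL2A1, COL9A1, COL9A2 and COL26A1 to the left.

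Among the fibrillar genes COL1A1 ranged in females from 1605 FPKM through a median of 2137 to 2990 at day 11, and from 1390 through 1609 to 2302 at day 15. In males it ranged from 2259 through 2607 to 2969 at day 11 and from 1357 through 1986 to 2872 at day 15. The groups overlapped, and 4 of 10 day 15 females and 7 of 10 day 15 males lay below every day 11 embryo of their sex. The log2 change was -0.31 ± 0.08 (SE, limma, adjusted p = 0.000767). COL1A2 had a female median of 1986 FPKM (1373 to 2515) at day 11 and 1403 (1330 to 2073) at day 15, and a male median of 2321 (1934 to 2687) and 1737 (1248 to 2470). Again the days overlapped in both sexes, and COL1A2 fell by 0.31 on the log2 scale (SE 0.07, adjusted p = 0.000391). COL5A2 (ENSGALG00000031112, chromosome 7, 504980 to 619779), a type V chain, went from a female median of 191 FPKM (103 to 216) to 132 (126 to 186) and from a male median of 199 (160 to 235) to 148 (103 to 189). In males 6 of 10 day 15 embryos lay below every day 11 embryo, and in females none did. Its log2 change was -0.31 ± 0.07 (adjusted p = 0.000177).

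COL3A1 and COL5A1 did not pass the test. Medians of COL3A1 were 1918 and 1697 FPKM in females and 1961 and 1840 FPKM in males at days 11 and 15, with a log2 difference of 0.02 and a 95% confidence interval of -0.15 to 0.18. The medians of COL5A1 were 151 and 134 FPKM in females and 166 and 149 FPKM in males, and the interval of its log2 difference was -0.17 to 0.15.

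COL2A1 (ENSGALG00000030712, chromosome 33, 7292614 to 7310596), the chain of type II collagen, fell furthest among the fibrillar genes. In females it ranged from 31.4 FPKM through a median of 47.2 to 79.4 at day 11 and from 15.3 through 16.97 to 29.1 at day 15, with no overlap between the days. In males it ranged from 37.2 through 63.2 to 78.1 at day 11 and from 14.6 through 31.4 to 60.04 at day 15, and 8 of 10 day 15 males lay below every day 11 male. Its log2 change was -1.11 ± 0.12 (limma, adjusted p = 4.41e-10).

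Cartilage markers were measured beside it. Of a list of 15 such genes 10 were in the table and 6 were tested, of which MATN3 and SOX6 rose, LECT1 fell and the others did not pass. The 3 called of 6 compare with 60.2% of all tested genes called between the days. The summed level of the 10 was 14.3 to 24.5 FPKM over all libraries. ACAN, the core protein of the cartilage proteoglycan aggrecan, had group medians of 0.0153 to 0.0291 FPKM, and MATN1, a cartilage matrix protein, had medians of 0.0102 to 0.0445 FPKM. Other members of the list were higher. Group medians were 3.04 to 3.90 FPKM for SOX5, 2.13 to 2.74 for HAPLN1, 1.07 to 2.12 for MATN3 and 0.667 to 1.43 for SOX6. EPYC had medians of 0.0550 to 0.351 FPKM, and those of MATN4 were at most 0.0731 FPKM. The group medians of COL2A1 were 16.97 to 63.2 FPKM, and SOX9, a transcription factor of cartilage and of other tissues, had medians of 6.90 to 9.08 FPKM. LECT1, the cartilage gene for chondromodulin, had medians of 2.10 and 0.671 FPKM in females and 2.39 and 0.839 FPKM in males, a log2 change of -1.34 ± 0.21 (adjusted p = 5.79e-07). In the other direction SOX6 changed by 0.90 ± 0.13 and MATN3 by 0.49 ± 0.14 (limma, adjusted p = 3.11e-07 and 0.00355).

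None of the basement membrane genes passed the day test with all embryos. COL4A1 (ENSGALG00000036798, chromosome 1, 140138678 to 140249096) had female medians of 270.4 FPKM (155 to 327) and 269.8 (182 to 311) and male medians of 273 (238 to 322) and 288 (214 to 324) at days 11 and 15. The groups overlapped throughout, and the 95% confidence interval of its log2 difference was -0.03 to 0.21. For COL4A2, the partner chain in the type IV trimer, the interval was -0.05 to 0.24. COL18A1, whose C-terminal fragment is endostatin, had medians of 186 and 152 FPKM in females and 179 and 156 FPKM in males, and its log2 difference of -0.12 did not pass the threshold (adjusted p = 0.0540). COL18A1 was called lower under 5 of 11 alternatives, with differences of -0.12 to -0.22 (adjusted p = 0.00331 to 0.0429), among them both other scalings and leaving out replicate 74. Embryo number as a covariate, also among them, left the difference of -0.12 as it was and lowered only its SE. Replicate 74 was picked for its high collagen values, so leaving it out lowers the day 15 values by construction. COL4A1 and COL4A2 were called higher at day 15 against the day 11 embryos numbered 2 to 20 (0.20 and 0.27, adjusted p = 0.0154 and 0.00491). Against those numbered 22 to 48 their differences were 0.02 and -0.03 and COL18A1 was called lower (-0.22, adjusted p = 0.00331). Against embryos 2 to 20 the difference of COL18A1 was -0.007 (limma, adjusted p = 0.943).

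Both network genes rose, and COL8A1 rose furthest among the 21 tested collagen genes. COL8A1 (ENSGALG00000015253, chromosome 1, 85383662 to 85470351) ranged in females from 9.27 FPKM through a median of 11.5 to 30.5 at day 11 and from 26.99 through 48.8 to 66.7 at day 15. In males it ranged from 5.79 through 13.7 to 21.1 and then from 25.01 through 46.7 to 64.5, with no overlap between the days. In females 9 of 10 day 15 embryos lay above every day 11 embryo. The ratio of medians was 4.25 in females and 3.41 in males, and the log2 change averaged over the sexes was 1.84 ± 0.14 (limma, adjusted p = 1.55e-14).

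COL8A2 (ENSGALG00000002298, chromosome 23, 4279194 to 4285138), the second type VIII chain, rose less. Its values were 7.67 to 14.5 FPKM (median 10.1) in females and 9.56 to 16.0 (median 12.9) in males at day 11, and 13.3 to 23.6 (median 15.3) and 9.96 to 23.3 (median 20.6) at day 15. The days overlapped in both sexes, and the log2 change was 0.63 ± 0.08 (adjusted p = 2.38e-08).

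All 8 tested smooth muscle and mural cell markers also rose between the days, against 30.9% of all tested genes called higher, and their summed level went from medians of 992 and 986 FPKM at day 11 to 1652 and 1633 at day 15 in females and males. In replicate 83, which had the highest sum of this list at day 15, COL8A1 was at 26.99 FPKM, the lowest of its group. Its COL8A2, at 13.9 FPKM, was not the lowest. This is a single library that also stood apart in its endothelial markers, and the relation over the other libraries was not examined. The part of smooth muscle and mural cells in the change of the type VIII genes was not tested.

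Of the fibril-associated genes COL12A1 (ENSGALG00000015908, chromosome 3, 80804845 to 80905035), a large collagen that binds type I fibrils, was the most abundant. In females it ranged from 8.65 FPKM through a median of 21.4 to 28.3 at day 11 and from 34.0 through 44.7 to 59.8 at day 15, without overlap. In males it ranged from 13.5 through 23.6 to 33.5 and from 22.5 through 47.5 to 62.4, with replicate 81 as the single day 15 male within the day 11 range. The log2 change was 1.15 ± 0.12 (adjusted p = 3.66e-11).

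COL14A1 (ENSGALG00000037675, chromosome 2, 136788122 to 136908061), which also binds fibrils and limits their thickness, ranged in females from 5.39 through 8.83 to 10.8 FPKM and then from 12.6 through 15.1 to 19.1, again without overlap. In males it ranged from 4.29 through 6.74 to 11.9 and from 10.01 through 16.98 to 24.5, and 9 of 10 day 15 males lay above every day 11 male. Its log2 change was 1.13 ± 0.10 (adjusted p = 8.94e-13).

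The type IX genes, whose product decorates type II fibrils, were low, and COL9A1 and COL9A2 fell. COL9A1 (ENSGALG00000015970, chromosome 3, 82821169 to 82887349) had a female median of 0.570 FPKM (0.198 to 1.02) at day 11 and 0.0642 (0.0163 to 0.334) at day 15. In males the median went from 0.830 (0.442 to 0.971) to 0.113 (0.0614 to 0.213), with no overlap. The log2 change was -1.87 ± 0.17 (adjusted p = 1.52e-12), a value that depends on the 0.1 FPKM added before the logarithm and understates the change. All day 15 values of COL9A1 lay below the 0.5 FPKM of the filter. Its entry into the test thus rested on the day where it was higher. Group medians of its recovered reads went from 78 to 9 in females and from 105 to 16 in males. COL9A2, with female medians of 2.37 and 1.43 FPKM and male medians of 3.04 and 1.60 FPKM, fell by 0.71 on the log2 scale (SE 0.12, adjusted p = 4.16e-06).

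The 3 fibril-associated genes below the filter were COL9A3, COL20A1 and COL22A1. When all genes with any value were tested, COL22A1, which in mammals marks tissue junctions, had a log2 change of -1.81 ± 0.15 (limma, adjusted p = 5.01e-13). Its medians went from 0.465 to 0.0747 FPKM in females, without overlap, and from 0.522 to 0.0530 FPKM in males. COL20A1 had a log2 change of 0.60 ± 0.15 (adjusted p = 0.000721), and COL9A3 did not pass (adjusted p = 0.368). Beyond this class COL28A1, at group medians of 0.0158 to 0.0557 FPKM, had a log2 change of -0.28 ± 0.08 (adjusted p = 0.00595).

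Of the beaded filament genes of type VI, which form microfibrils around cells, COL6A3 and COL6A1 rose and COL6A2 did not pass the test. COL6A3 (ENSGALG00000003923, chromosome 7, 4846504 to 4899768) ranged in females from 22.6 through 37.8 to 48.1 FPKM at day 11 and from 49.5 through 64.6 to 91.2 at day 15, without overlap. In males it ranged from 30.3 through 39.003 to 51.8 and from 40.6 through 79.6 to 96.5, and 9 of 10 day 15 males lay above the day 11 range. The log2 change was 0.94 ± 0.09 (adjusted p = 3.03e-12). COL6A1 had medians of 134 and 141 FPKM in females and 130.03 and 176 FPKM in males, and its log2 change was 0.38 ± 0.08 (adjusted p = 3.88e-05). COL6A2 (ENSGALG00000039216, chromosome 7, 6782467 to 6808501), the most abundant of these genes, had female medians of 289 and 267 FPKM and male medians of 290 and 321 FPKM. Averaged over the sexes its log2 difference of 0.12 did not pass (adjusted p = 0.0801). It did without replicate 81 of the day 15 males (0.15, adjusted p = 0.0194). That replicate was picked for its low collagen values, so leaving it out raises the day 15 values by construction.

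COL13A1 (ENSGALG00000004286, chromosome 6, 11712568 to 11751772), a transmembrane collagen of cell adhesion sites, had medians of 4.03 and 6.55 FPKM in females and 3.85 and 6.44 FPKM in males. Its day 15 females ranged from 2.14 to 9.71 FPKM, with 8 of 10 above and 1 below the day 11 range. The log2 change was 0.71 ± 0.13 (adjusted p = 5.65e-06). COL26A1 (ENSGALG00000043223, chromosome 19, 3673296 to 3828129), a short collagen first described in mammalian gonads, fell from a median of 21.1 FPKM (12.98 to 29.3) to 9.02 (4.64 to 19.8) in females and from 15.7 (6.92 to 26.4) to 8.86 (3.84 to 25.5) in males. Its log2 change was -0.89 ± 0.16 (adjusted p = 1.05e-05), and the days overlapped in both sexes. COL25A1, a transmembrane collagen known from neurons in mammals, ranged over the 40 libraries from 0.0252 to 3.90 FPKM and did not pass (adjusted p = 0.164). Against day 11 embryos 2 to 20 it was called higher at day 15 (1.07, adjusted p = 0.0449), and against embryos 22 to 48 its difference was 0.09 (adjusted p = 0.864).

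As a share of the summed FPKM of a library, the 25 genes together took 1.30% ± 0.27 in day 11 females and 1.14% ± 0.17 in day 15 females (SD, n = 10 each). In males they took 1.48% ± 0.14 and 1.36% ± 0.31. Neither difference passed (two-sided permutation tests, 100000 resamples, adjusted over 12 shares, p = 0.210 and 0.316). The female difference of -0.156 percentage points was -0.323 against day 11 embryos 22 to 48 and passed there (permutation test, adjusted p = 0.00839). The fibrillar share was 1.10% and 0.923% in females and 1.27% and 1.11% in males (adjusted p = 0.120 and 0.167). Without replicate 74 the female fibrillar difference passed, at -0.213 percentage points (adjusted p = 0.0408), as it did against day 11 embryos 22 to 48, at -0.313 (adjusted p = 0.00599). Replicate 74 was picked for its high collagen values, so leaving it out lowers the day 15 female share by construction. The network share went from 0.00427% ± 0.00152 to 0.0113% ± 0.00244 in females and from 0.00452% ± 0.000947 to 0.0114% ± 0.00308 in males (adjusted p = 0.000160 and 0.000120). The fibril-associated share went from 0.00563% to 0.0109% and from 0.00616% to 0.0119% (adjusted p = 0.000120 and 0.000780). The basement membrane share was 0.111% and 0.110% in females and 0.118% and 0.120% in males (adjusted p = 0.944 and 0.820). In females this difference was 0.0249 percentage points against day 11 embryos 2 to 20 and -0.0177 against embryos 22 to 48, and passed in both directions (permutation tests, adjusted p = 0.0480 and 0.0227). The share of the other class passed in males, at 0.0844% and 0.108% (adjusted p = 0.0331), and not in females, at 0.0810% and 0.0891% (adjusted p = 0.285), and the difference between the sexes was not tested. Both calls depended on the embryo number: the male difference was 0.0159 percentage points against day 11 embryos 22 to 48 and did not pass (permutation test, adjusted p = 0.283), and the female difference was 0.0238 against embryos 2 to 20 and passed (adjusted p = 0.0144).

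Ratios between genes whose chains assemble together do not use the scaling between libraries. They were taken within each library as log2 ratios of FPKM with 0.1 added, for 8 pairs in each sex, and compared between the days by two-sided permutation tests adjusted over the 16 tests. The type I ratio stayed within a narrow range. COL1A1 to COL1A2 averaged 1.12 at both days in females and 1.13 at both days in males, and the differences of -0.0003 and 0.004 on the log2 scale were far smaller than the SD of 0.06 to 0.08 between embryos (adjusted p = 0.994 and 0.951). COL4A1 to COL4A2 averaged 1.28 at both days in females and 1.25 at both days in males (adjusted p = 0.951 each).

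The other pairs shifted with day in both sexes. COL8A1 to COL8A2 went from 1.30 to 3.02 in females and from 0.963 to 2.24 in males, log2 differences of 1.21 and 1.22 (adjusted p = 0.000213 and 0.000569). Within type VI, COL6A3 to COL6A1 went from 0.289 to 0.450 in females and from 0.302 to 0.424 in males (adjusted p = 0.000160 each), without overlap between the days in either sex. COL6A1 to COL6A2 went from 0.441 to 0.517 and from 0.437 to 0.532 (adjusted p = 0.000672 and 0.000427). COL5A1 to COL5A2 went from 0.811 to 0.974 in females and from 0.819 to 1.03 in males (adjusted p = 0.00261 and 0.000427). COL3A1 to COL1A2, chains of different types that mix in the same fibrils, went from 0.886 to 1.14 and from 0.840 to 1.03 (adjusted p = 0.000569 each). COL9A1 to COL9A2 went from 0.256 to 0.115 and from 0.272 to 0.123 (adjusted p = 0.00261 and 0.000427), and this pair lost its call in both sexes with 1 FPKM added instead of 0.1 (adjusted p = 0.821 and 0.755).

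**Figure D3:**
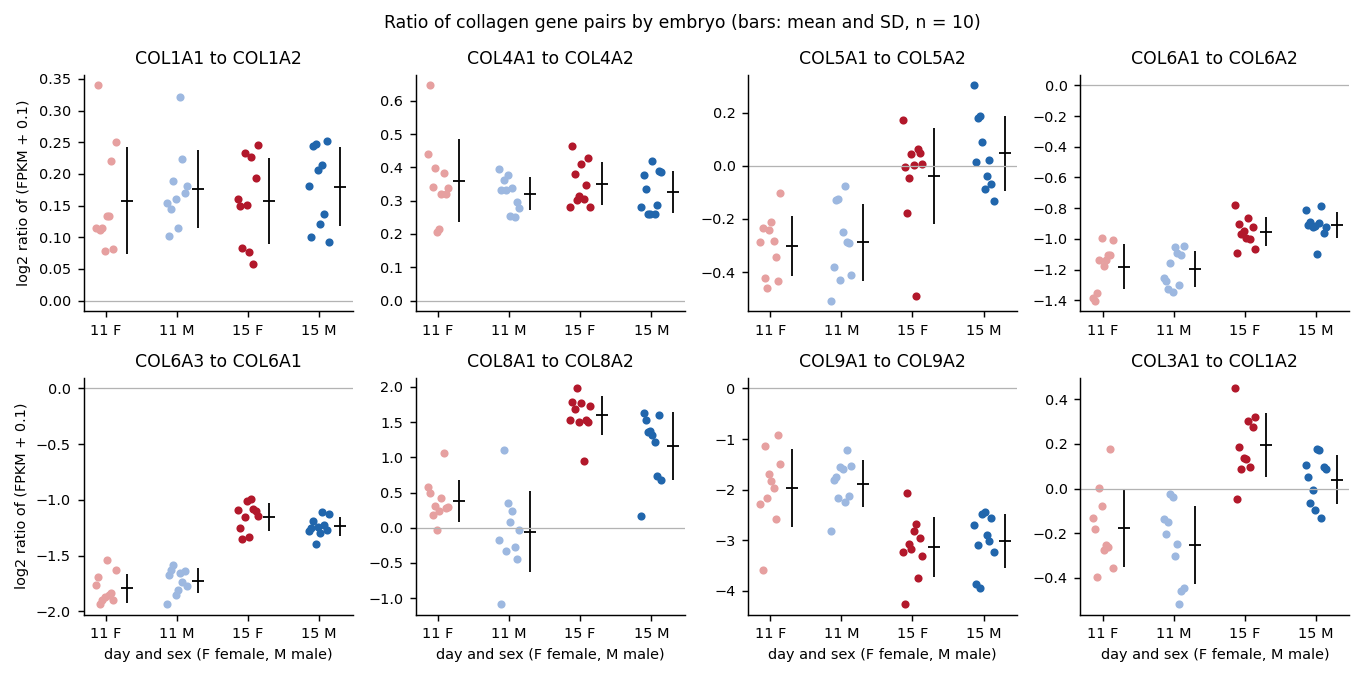
Log2 ratio of 8 pairs of collagen genes in each embryo, by day and sex; points are embryos and bars give the mean and SD (n = 10). The COL1A1 to COL1A2 and COL4A1 to COL4A2 panels lie at the same height at both days, while COL6A3 to COL6A1 and COL8A1 to COL8A2 lie higher at day 15 and COL9A1 to COL9A2 lies lower. Vertical scales differ between panels.

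The same pairs were compared across embryos after the mean of each day and sex group had been subtracted, over all 40 embryos and for 9 pairs. Embryo number was not taken out, and pairs outside the collagens were not compared. Whether the correlations are particular to partner chains was therefore not tested. COL1A1 and COL1A2 varied together with Pearson's r of 0.96 and Spearman's rho of 0.95. COL4A1 and COL4A2 had r of 0.94, COL6A3 and COL6A1 0.92, and COL6A1 and COL6A2 0.89. COL5A1 and COL5A2 had r of 0.82, as did COL3A1 and COL1A2. For these 6 pairs each permutation p was 1e-05, the smallest that the permutations can give (adjusted 1.5e-05 for r and rho), and r without the 2 embryos farthest from the median was 0.75 to 0.95. COL2A1 and COL1A1 had r of 0.65 and rho of 0.53 (adjusted p = 5.14e-05 and 0.00125), and r was 0.54 without the 2 farthest embryos. COL8A1 and COL8A2 had r of 0.44 and rho of 0.40 (adjusted p = 0.00576 and 0.0138), and r was 0.39 without the 2 farthest embryos. Within groups their r was 0.83 in day 11 females, 0.04 in day 11 males, 0.62 in day 15 females and 0.31 in day 15 males. COL9A1 and COL9A2, with r of 0.11 and rho of 0.07, did not pass (adjusted p = 0.551 and 0.675).

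Several fibrillar collagen genes were called higher in males over both days, but not when only day 11 embryos 22 to 48 were used. Averaged over the days 4 of the 21 tested genes were called higher in males and none lower, against 3.41% of all tested genes higher and 1.42% lower (4.84% together; limma, adjusted p below 0.05). They were COL2A1, COL1A1, COL1A2 and COL8A2, and none of the 25 genes lies on chromosome Z or W. An unadjusted p below 0.05 was reached by 8 of the 21, against 2105 of all 15880 tested genes (limma). A positive difference was seen in 17 of the 21, including all 6 fibrillar genes. Many of these genes varied together across embryos, so they are not 21 separate observations. The median difference was 0.15 on the log2 scale for the collagen genes and -0.01 over all tested genes.

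COL2A1 showed the largest of these differences. Its medians were 47.2 FPKM in females and 63.2 in males at day 11, and 16.97 and 31.4 at day 15, and 9 of 10 males lay above the female median at each day. The log2 difference was 0.51 ± 0.12 (adjusted p = 0.00505). For COL1A1 the medians were 2137 and 2607 FPKM at day 11 and 1609 and 1986 at day 15, with 10 of 10 and 9 of 10 males above the female median and a log2 difference of 0.27 ± 0.08 (adjusted p = 0.0293). COL1A2 had 9 of 10 males above the female median at each day and a difference of 0.25 ± 0.07 (adjusted p = 0.0355). COL8A2 had medians of 10.1 and 12.9 FPKM at day 11 and 15.3 and 20.6 at day 15, and a difference of 0.28 ± 0.08 (adjusted p = 0.0360). The sexes overlapped in each of these genes at each day.

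**Figure D4:**
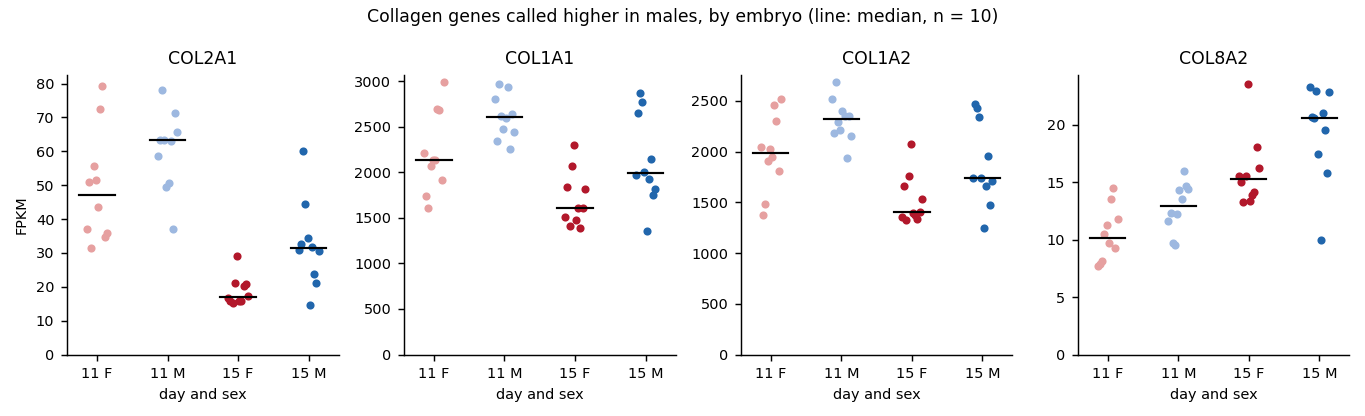
FPKM of the 4 collagen genes called higher in males, by day and sex; each point is 1 embryo and lines are medians (n = 10). The male median lies above the female median at both days in each panel, and the points of the sexes overlap.

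Within a day fewer genes passed. At day 11 none of the 21 was called, against 2.55% of all tested genes higher and 0.932% lower (3.48% together). An unadjusted p below 0.05 was reached there by 4 of the 21, against 1480 of all 15880 tested genes (limma). At day 15 only COL2A1 was called, with a log2 difference of 0.71 ± 0.18 (adjusted p = 0.00911), against 2.58% of all genes higher and 0.919% lower (3.5% together). Without replicate 81 of the day 15 males, where 2.73% of all tested genes were called higher in males at day 15, 4 collagen genes were called, namely COL2A1 (0.81, adjusted p = 0.000885), COL6A1 (0.35, adjusted p = 0.0256), COL6A2 (0.29, adjusted p = 0.0310) and COL8A2 (0.35, adjusted p = 0.0463). Replicate 81 was picked for its low collagen values, so leaving it out raises the male values of these genes by construction. The added calls are therefore no separate support for a sex difference.

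The sex difference also depended on which day 11 embryos were used. With those numbered 2 to 20 only, 5 genes were called higher in males over both days, and with those numbered 22 to 48 only none was. Of all tested genes 3.24% and 2.97% were called higher in males with these embryos. With embryos 22 to 48, a setting of fewer embryos, the log2 differences over both days were 0.43 for COL2A1 and 0.19 for COL1A1. They were 0.15 for COL1A2 and 0.29 for COL8A2 (limma, adjusted p = 0.191, 0.554, 0.653 and 0.119 in this order). At day 11 alone the log2 difference of COL1A2 was 0.48 ± 0.16 in the lower number range and 0.03 ± 0.14 in the higher (adjusted p = 0.129 and 0.999), and that of COL3A1 was 0.54 ± 0.16 and -0.19 ± 0.13 (adjusted p = 0.0599 and 0.999). COL8A2 had 0.35 ± 0.17 and 0.32 ± 0.16. COL8A2 lost its call over both days under 5 of the alternative settings (adjusted p = 0.0508 to 0.119).

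For no collagen gene did the test call a different change with day in the sexes (limma interaction, 0 called, 1 with an unadjusted p below 0.05, against 0.0252% of all tested genes called, 0.0189% in the positive and 0.0063% in the negative direction). The gene with the smallest p was COL14A1, whose median ratio of day 15 to day 11 was 1.72 in females and 2.52 in males (interaction 0.45 ± 0.20 on the log2 scale, unadjusted p = 0.0288, adjusted p = 1.00). COL2A1 had an interaction of 0.39 ± 0.25, COL6A1 of 0.23 ± 0.15 and COL6A2 of 0.17 ± 0.12 (adjusted p = 1.00 each).

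Within day 11 some collagen genes followed the embryo number in the labels. With sex as a term 5 of 21 were called higher with a higher number (COL18A1, COL12A1, COL8A2, COL6A1, COL6A3) and 2 lower (COL9A2, COL13A1), against 15.8% and 17.2% of all tested genes (33.1% together). The share of collagen genes called in either direction was thus near that of all tested genes. Without scaling between libraries 9 collagen genes were called higher, and the split of all genes moved from 2516 higher and 2738 lower to 3730 and 1324. COL12A1 had a slope of 0.18 ± 0.05 on the log2 scale per 10 embryo numbers (limma, adjusted p = 0.00913). Its median was 17.99 FPKM in the 9 embryos numbered 2 to 20 and 25.4 in the 11 numbered 22 to 48, against 46.4 in the 20 day 15 embryos. The size of the day change therefore depended on the range used. Against the lower and the higher range the log2 changes were 1.51 and 0.88 for COL12A1, and 0.80 and 0.49 for COL8A2. They were 0.55 and 0.25 for COL6A1, 1.13 and 0.81 for COL6A3, -0.89 and -0.56 for COL9A2, and 0.53 and 0.86 for COL13A1. Each was called against either range. COL18A1 went from a median of 157 FPKM in the lower range to 193 in the higher, without overlap, and was at 155 at day 15. The share of all tested genes without overlap between these ranges was not computed. At day 15 no collagen gene was called (0 of all tested genes, 981 with an unadjusted p below 0.05; among collagen genes COL25A1 had an unadjusted p of 0.0238). What the embryo number stands for is not given in the labels, and since day 15 embryos were numbered from 52 upward it cannot be told apart from day between the days.

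Genes for collagen folding, cleavage and cross-linking moved in both directions between the days. Of a list of 39 symbols 31 were in the table and 30 were tested, of which 8 rose, 13 fell and 9 did not pass, against 30.9% and 29.3% of all tested genes. The median change was -0.05 on the log2 scale. The largest increases were those of LOXL1 (1.55 ± 0.07), a cross-linking oxidase, P3H2 (0.89 ± 0.12), a prolyl 3-hydroxylase, ADAMTS2 (0.75 ± 0.13), which removes the N-terminal propeptide, and LOX (0.59 ± 0.11) and P4HA2 (0.59 ± 0.07), a cross-linking oxidase and a prolyl 4-hydroxylase subunit. The highest adjusted p of these was 2.53e-05. LOX went from medians of 34.1 and 34.0 FPKM in females and males to 42.7 and 52.7.

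Among the genes that fell TLL1, a protease that removes the C-terminal propeptide, went from medians of 9.09 and 10.1 FPKM to 3.90 and 4.27 in females and males, a log2 change of -1.15 ± 0.07 (adjusted p = 1.02e-16). P4HA3, another prolyl 4-hydroxylase subunit, went from 40.3 and 51.0 FPKM to 19.9 and 21.2 (-1.07 ± 0.11, adjusted p = 4.05e-11). FKBP10, a collagen chaperone, changed by -0.59 ± 0.06, P3H1, a prolyl 3-hydroxylase, by -0.47 ± 0.07 and PLOD2, a lysyl hydroxylase, by -0.47 ± 0.11. SERPINH1, the collagen chaperone HSP47, had medians of 350 and 376 FPKM in females and 397 and 385 in males and did not pass (adjusted p = 0.374). Of 6 tested receptor genes ITGB1, a subunit of the collagen-binding integrins, rose by 0.20 ± 0.03, while MRC2, an endocytic collagen receptor, and DDR2, a collagen receptor kinase, changed by -0.64 ± 0.07 and -0.26 ± 0.06. Averaged over the days 2 of the 6 receptor genes were called higher in males and 0 lower, against 3.41% and 1.42% of all tested genes. They were MRC2 and ITGA11, an integrin subunit for fibrillar collagen (0.29 ± 0.07 and 0.39 ± 0.09, limma, adjusted p = 0.00724 and 0.00147). Of the 30 tested processing genes 1 was called higher in males, TMEM38B (0.38 ± 0.04, limma, adjusted p = 3.02e-09), and 0 lower.

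Markers of other cell types were called in both directions between the days, where 30.9% of all tested genes were higher and 29.3% lower. Of 8 tested endothelial markers 5 rose and 2 fell, of 8 epithelial markers 7 rose and none fell, of 13 stromal fibroblast markers 4 rose and 6 fell, of 6 bone markers 4 fell, and of 2 tendon markers THBS4 fell. The median summed level of the stromal list was 2641 and 2347 FPKM at days 11 and 15 in females and 2677 and 2693 in males. That of the bone list went from 52.8 to 35.8 and from 46.5 to 38.1 FPKM, and that of the tendon list from 12.8 to 10.1 and from 11.3 to 10.1 FPKM. The epithelial sum went from 3476 to 5055 and from 3257 to 4573 FPKM, and the endothelial sum from 749 to 911 and from 742 to 897. Between the sexes none of the tested stromal markers was called. An unadjusted p below 0.05 was reached by 5 of 13, against 2105 of all 15880 tested genes (limma). In males 11 of 13 were higher, with a median log2 difference of 0.12. Of 8 epithelial markers 7 were lower in males, with a median of -0.12 and none called (2 with an unadjusted p below 0.05). All 8 endothelial markers were higher in males (median 0.03) and 7 of 8 smooth muscle and mural markers were lower (median -0.09), with none called. No cartilage or bone marker was called. The tendon marker THBS4 was called lower in males (-0.74, limma, adjusted p = 8.08e-07). The part of these cells in the changes of the collagen genes was not tested.

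The annotation deposited with the values (GRCg6a) shows an exon pattern that the symbols do not use. It was clearest in the fibrillar genes, the type IX genes and COL22A1. Of the 940 inner exons (all but the first and last of the longest transcript) of the 24 collagen genes that have any, 26.6% were exactly 54 bases long, against 0.48% of 133161 inner exons in 14192 other coding genes, and 62.3% were a multiple of 9 bases long, against 13.5%. The collagen helix repeats a triplet of residues that starts with glycine, so a repeat unit takes 9 bases of coding sequence. The 6 fibrillar genes had 42.9% to 47.1% of exons at 54 bases, as did COL9A2 and COL9A3 with 46.7%, and COL22A1 had 48.4%. In the type IV genes COL4A1 and COL4A2 the share was 4.0% and 2.2%, and in COL12A1 and COL14A1, which rose with day, it was 6.2% and 8.7%. COL8A2 had no inner exon. The 3 of COL8A1 and the 6 of COL26A1 included none of 54 bases and none at a multiple of 9.

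**Figure D5:**
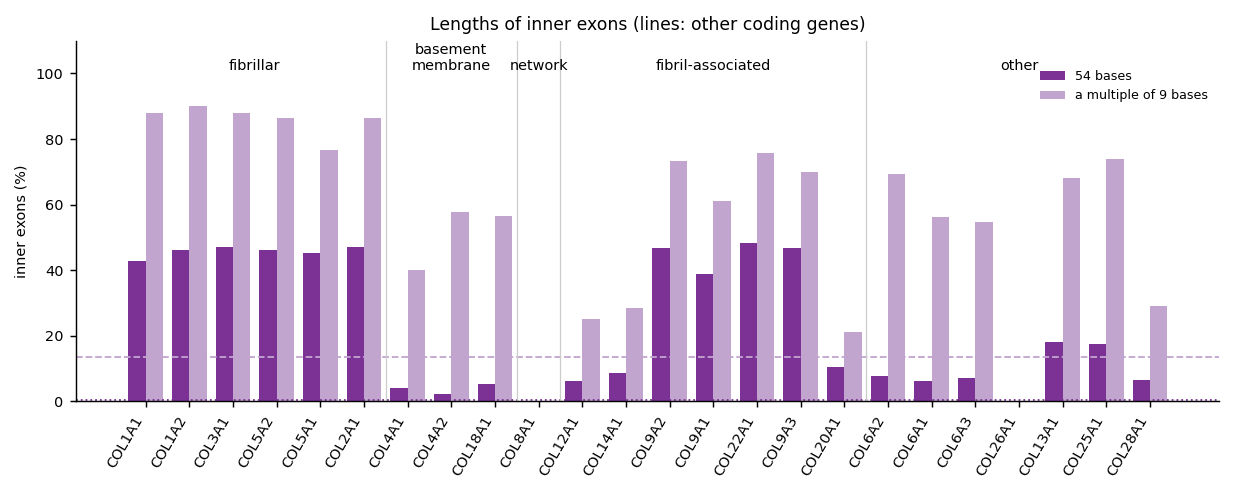
Percentage of inner exons that are 54 bases long (dark bars) or a multiple of 9 bases long (light bars) in the 24 collagen genes with inner exons, by structural class; horizontal lines give the values of other coding genes, 0.48% (dotted) and 13.5% (dashed). The fibrillar genes, the type IX genes and COL22A1 have the tallest dark bars.

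Some of the genes lie beside each other. COL4A1 and COL4A2 are transcribed away from each other on chromosome 1 and overlap by 281 bases within exons. COL5A2 and COL3A1 lie on opposite strands of chromosome 7 and their spans overlap by 1749 bases outside shared exons, while the exons of COL3A1 overlap an unnamed gene, ENSGALG00000051019, on the same strand. The strand setting of the counting is not given in the sources used here, so reads from the exons shared by COL4A1 and COL4A2 cannot be assigned with certainty. Reads from the exons that COL3A1 shares with the unnamed gene cannot be assigned by strand under any setting. COL18A1, COL6A1 and COL6A2 follow each other on chromosome 7 at 60.063 kb and 21.697 kb. Of these 3 neighbours COL6A1 alone passed the day test averaged over the sexes.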

How the data were processed

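RNA of 40 chorioallantoic membranes was sequenced after library preparation with a NEBNext Ultra kit from 1 µg of RNA, as described in the labels' protocols. GRCg6a, HISAT2 and HTSeq are named, without versions, per the submitters' processing notes. The authors deposited a table named as raw counts whose values are, judged from the numbers, FPKM or RPKM (called FPKM here; which of them was not settled), and an exon annotation with symbols and coordinates. Whole reads, within 0.05, could be recovered from 100% of the values, using the mean transcript length of a gene.

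FPKM were scaled by a trimmed mean of log ratios (30% and 5% trimmed) and transformed as log2(scaled FPKM + 0.1); fold changes on this scale understate changes of low genes. Genes with at least 0.5 FPKM in 10 libraries were tested (15880; 21 of 25 collagen genes). limma 3.58.1 (R 4.3.3, statmod 1.5.0) was fitted with 1 mean per day and sex group, intensity trend and robust moderation, and Benjamini-Hochberg adjustment over all tested genes. Shares and ratios used permutation tests (Python 3.11.15, SciPy 1.17.1). The fit was checked on simulated data. Alternatives were pseudocount 1, no filter, no scaling, median of ratios scaling, embryo number as a covariate, either range of day 11 numbers, shares without haemoglobin and mitochondrial genes, and leaving out replicate 83. Voom on the recovered reads and leaving out replicates 81 or 74 of day 15 were chosen after seeing the data.

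Collagen genes, classes and lists were chosen with earlier results of these data known. Described in detail were the most abundant gene of each class, up to 3 called genes of each class that changed furthest and reached a group mean of 0.5 FPKM, COL1A1, COL2A1 and COL8A1, and the 4 genes with the smallest p for sex and interaction, and up to 5 called processing genes in each direction; other genes named were chosen after their values were seen.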

Additional observations from a re-analysis of the deposited data

Results flagged for a closer look

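Each of the 140 combinations of a gene, share or ratio with a group of 10 embryos was checked for a single embryo far from the rest by Dixon's ratio of gap to range. Chance alone flags about 1 in 20 groups, and 11 of 140 were flagged. On the log2(scaled FPKM + 0.1) scale, replicate 81 of the day 15 males was low for COL12A1 (4.62, others 5.26 to 5.95), COL8A2 (3.45, others 4.02 to 4.57) and COL6A1 (6.76, others 7.25 to 7.82). Its basement membrane share was 0.0776%, against 0.107% to 0.137% in the other embryos. Replicate 74 of the day 15 females was high for COL2A1 (4.87, others 3.95 to 4.41) and COL5A1 (7.59, others 6.87 to 7.25). Replicate 83 of the day 15 females was low for COL4A1 (7.60, others 7.95 to 8.26), for the log2 ratio of COL5A1 to COL5A2 (-0.49, others -0.18 to 0.17) and for that of COL8A1 to COL8A2 (0.95, others 1.497 to 1.98). At day 11, male 7 was low for COL26A1 (2.81, others 3.70 to 4.69), and female 6 had a high log2 ratio of COL4A1 to COL4A2 (0.65, others 0.20 to 0.44).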

How the results depend on the processing

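No paired analysis was possible because no embryo number occurs in more than 1 group. Under the alternatives 303 of 318 values that answer a comparison were rated unchanged, as were 674 of 693 values of single genes. Some of these had little room to change. Embryo number as a covariate was centred within each day. It left the log2 changes with day averaged over the sexes as they were and altered only their SE. All 231 interaction values of single genes were rated unchanged, in a test where no collagen gene came near the threshold. A count was rated unchanged if it stayed within a fixed factor of the main count. A difference was rated unchanged if it stayed on its side of the threshold. It was rated reversed only if its sign changed and either value passed. No value of a single gene was reversed in this sense. Differences that did not pass could change sign, as that of COL4A2 with day did, from 0.09 to -0.03 against day 11 embryos 22 to 48. Depth limits the 6 genes below 1 FPKM. With day 11 embryos 2 to 20 only, 4 collagen genes were called lower at day 15 in females, where the basement membrane share difference turned direction to 0.0249 percentage points, the share of the other class passed (0.0238) and the log2 ratio of COL9A1 to COL9A2 did not (-0.83). With day 11 embryos 22 to 48 only, 4 genes were called lower in males and 0 for sex; in females the shares of all collagen (-0.323), fibrillar (-0.313) and basement membrane genes (-0.0177) passed, and in males the share of the other class did not (0.0159). These settings use fewer samples; beyond that the cause was not tested. With a pseudocount of 1 the log2 ratio of COL9A1 to COL9A2 was -0.0756 in females and -0.0781 in males and not called. Without scaling 9 genes followed embryo number upward at day 11. Leaving out replicate 83, 81 or 74 gave 1 to 4 genes called for sex at day 15 and a female fibrillar share difference of -0.168 without replicate 83 and -0.213 without replicate 74. Replicates 81 and 74 were picked for their low and high collagen values, so the direction of these shifts follows from the choice. Voom on the recovered reads called 8998 of 14817 genes between the days and changed no call of a named collagen gene.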
